A study of Mus musculus with 3 samples.

Results

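Interferon-stimulated genes are described here in thymic cells of 3 mouse libraries, sorted for precursors of invariant natural killer T (iNKT) cells. The genes were chosen as a list of 47 gene symbols, matched by symbol in the gene table of each library, and 46 of the 47 were in all 3 tables, out of 30406 gene identifiers that the tables shared. The exception was Mx1, of the GTPase group, which was in the table of the C57BL/6 library only. After depletion of CD8+ thymocytes, cells positive for TCRβ and CD1d tetramer and negative for CD24 and NK1.1 were sorted, and droplet RNA sequencing counted unique molecular identifiers (UMIs) per gene and cell. The C57BL/6 library, labelled WT, came from mice aged 7 weeks that had no bone marrow transplantation (BMT). The BM only and BM + Spl libraries, labelled Non-GVHD and GVHD, came from F1 (C57BL/6 x BALB/c) hosts aged 16 weeks, taken 9 weeks after BMT. These hosts were lethally irradiated and received C57BL/6 marrow depleted of CD3+ T cells, alone in BM only or together with C57BL/6 spleen cells in BM + Spl, the group that developed chronic graft-versus-host disease (GvHD). Cells of several mice were pooled before sequencing, so each group was 1 library, no test between groups was possible, and every interval given is a 95% interval for counting error only.

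Interferon-stimulated genes are switched on when a cell senses interferon. Type I interferons bind the receptor Ifnar1/Ifnar2, the kinases Jak1 and Tyk2 are activated, and a complex that holds Stat2 and Irf9 binds interferon-stimulated response elements in promoters. Interferon-gamma acts through its own receptor, and some members of the list, the guanylate-binding proteins and Ifi47 among them, respond to it as well. The products sense viral nucleic acid, block translation, degrade RNA, modify proteins or trap virions, and many are also expressed at a low tonic level in thymocytes with no infection.

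A total of 4434, 5970 and 5557 cells of C57BL/6, BM only and BM + Spl passed the filter, which kept cells with less than 10% of UMIs from mitochondria and more than 200 but fewer than 6000 genes. Their median depth was 12086.5, 4740 and 6495 UMIs per cell. The study states the same thresholds, but a slightly larger number of cells for C57BL/6, a smaller one for BM only and a far smaller one for BM + Spl. The cells described here are therefore not the study's own set. Levels are given as counts per 1000000 UMIs (CPM), summed over the cells of a library or group. The labels name both 3′ and 5′ kits without saying which library used which. V beta segments gave 17.8 CPM in C57BL/6, against 1504 in BM only and 1678 in BM + Spl, and age, host, transplantation, gene table and software version also differed between C57BL/6 and the BMT libraries. Effects of these on a member cannot be told apart, so C57BL/6 values stand beside the others without a ratio. BM only and BM + Spl shared 43 cell barcodes, and C57BL/6 shared none with either.

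Cells were also gated by markers that are no members of the list. NKT1-like cells, with genes of the T-bet programme, numbered 960, 2442 and 469 in the 3 libraries, in the order above, and NKT2-like cells, with genes of the PLZF and IL-4 programme, numbered 2012, 749 and 1281. NKT1-like cells were thus 40.9% of BM only and 8.44% of BM + Spl. Cells outside the iNKT lineage were also present after BMT: regulatory T-like cells made up 9.06% and 11.2%, Cd8a+Cd8b1+ cells 2.53% and 5.96%, and plasmacytoid dendritic-like cells 3.67% and 7.94%. In C57BL/6 these 3 gates held 1, 3 and 5 cells. Among cells with a V beta UMI, the segments typical of iNKT cells prevailed in 87.2% of BM only and 40.7% of BM + Spl NKT1-like cells, and in 87.0% and 87.0% of NKT2-like cells. These segments also prevailed in 27.6% and 24.1% of regulatory T-like cells and in 34.2% and 32.8% of Cd8a+Cd8b1+ cells. Cells called by iNKT V beta segments can therefore include other T cells. Over all cells with a V beta UMI the share was 73.3% in BM only and 55.1% in BM + Spl. Values over all filtered cells are thus not those of iNKT cells alone. Fewer cells of a type and less RNA per cell cannot be told apart in values summed over a whole library.

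The promoters show what many members share that the list did not use. The core of the interferon-stimulated response element was searched as GAAA, any 2 bases and GAAA again, on both strands, in the 250 bases before each RefSeq start site (GRCm38.p6). It was found for 20 of the 37 members with an entry, or 54.1%, against 936 of 27025 genes, or 3.46%. It was present for 4 of 4 PYHIN genes and 4 of 5 IFIT genes, and for none of Ifi35, Ifi44, Xaf1 and Lgals3bp. The gamma-activated site, searched as TTCNNNGAA, which is its own complement, was found for 6 of 37 members (16.2%) and 8.13% of all genes. The table held no entry for Dhx58, Zbp1, Usp18, Oas2, Gbp9, Mx1, Parp9, Parp14, Rtp4 and Ifi27l2a. The 160 bases before the start site of 4 genes that define interferon-high cells later in the text, and of Bst2 and Oasl2, which differed most between the BMT libraries among members with an entry, are given 5′ to 3′ on the strand of the gene. Matches to the first motif are in capitals.
Isg15 (chr4:156200819-156200978, - strand): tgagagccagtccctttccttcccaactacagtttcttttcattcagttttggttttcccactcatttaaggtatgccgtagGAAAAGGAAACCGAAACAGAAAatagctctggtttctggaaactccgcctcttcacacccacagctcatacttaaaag
Ifit1 (chr19:34640729-34640888, + strand): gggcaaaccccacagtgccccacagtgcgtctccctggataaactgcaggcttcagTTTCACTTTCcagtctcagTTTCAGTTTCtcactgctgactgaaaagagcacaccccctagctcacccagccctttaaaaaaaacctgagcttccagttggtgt
Ifit3 (chr19:34583369-34583528, + strand): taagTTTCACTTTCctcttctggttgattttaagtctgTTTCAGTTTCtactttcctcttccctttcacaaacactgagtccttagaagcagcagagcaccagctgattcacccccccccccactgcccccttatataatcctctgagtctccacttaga
Rsad2 (chr12:26456453-26456612, - strand): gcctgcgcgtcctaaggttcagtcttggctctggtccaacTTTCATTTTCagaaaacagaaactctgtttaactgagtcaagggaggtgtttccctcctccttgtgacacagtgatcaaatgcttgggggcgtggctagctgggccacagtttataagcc
Bst2 (chr8:71537473-71537632, - strand): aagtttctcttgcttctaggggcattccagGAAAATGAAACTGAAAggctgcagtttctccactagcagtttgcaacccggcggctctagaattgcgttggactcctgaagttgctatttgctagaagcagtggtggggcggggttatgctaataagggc
Oasl2 (chr5:114896774-114896933, + strand): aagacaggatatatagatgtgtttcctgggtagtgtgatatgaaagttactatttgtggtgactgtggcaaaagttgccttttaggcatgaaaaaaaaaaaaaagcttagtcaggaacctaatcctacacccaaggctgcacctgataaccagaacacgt

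Isg15 held 3 overlapping matches, Ifit1, Ifit3 and Bst2 held 2 each, overlapping in Bst2, and Rsad2 held 1. Oasl2 held none in this window, which says only that these letters are not there. A match is a description of the sequence and not of binding.

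Members together gave 0.327%, 0.341% and 0.518% of all UMIs in C57BL/6, BM only and BM + Spl. A single gene, Ifi27l2a, gave 29.6%, 36.1% and 48.8% of these member UMIs. Without it, the summed level was 2300.5, 2181 and 2653 CPM. Sums that include it are therefore not used, and each comparison is described by counts of genes and their median.

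**Figure D1:**
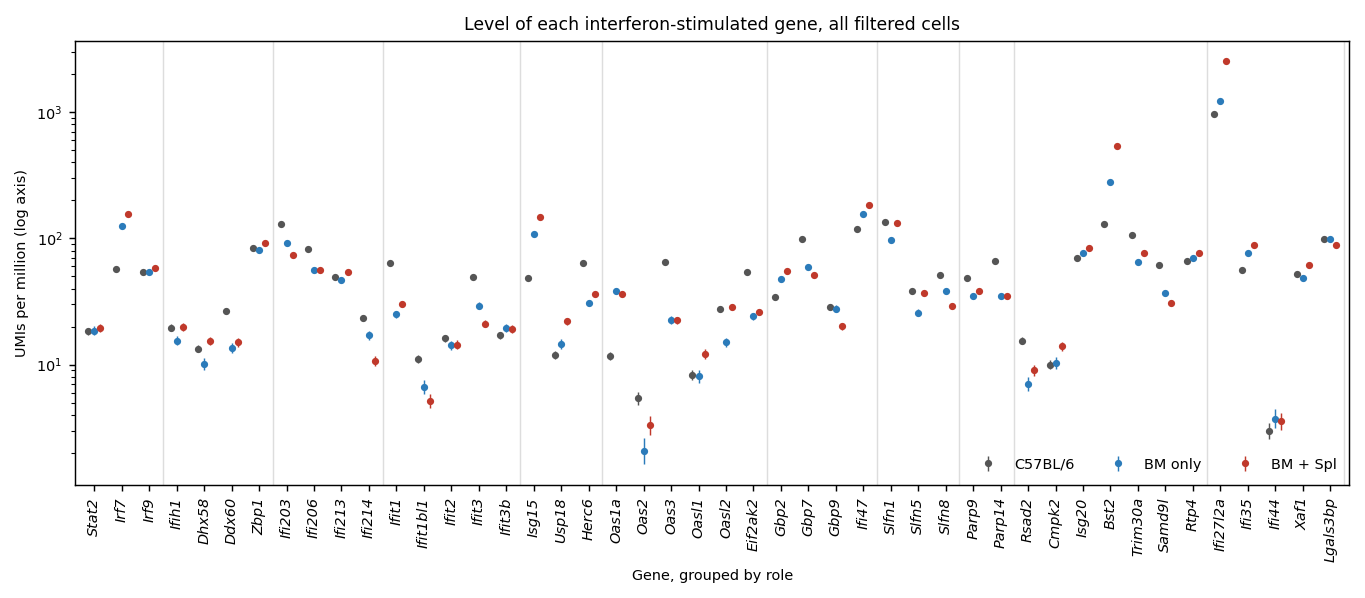
Level of the 46 shared members in all filtered cells of each library, in CPM on a log axis, with genes in role groups separated by grey lines and bars for exact Poisson 95% intervals. Ifi27l2a and Bst2 were higher in BM + Spl than in the other libraries, at 2531 and 542 CPM, while Ifi214 and Ifit1bl1 were lower there than in the others, at 10.8 and 5.17 CPM.

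Between the BMT libraries, 6 of 46 members were at least 1.5-fold higher in BM + Spl than in BM only, and 1 was at least 1.5-fold lower. Ifi27l2a, Bst2, Oasl2, Oas2, Usp18 and Dhx58 were higher and Ifi214 was lower. All 46 members had at least 100 UMIs over both libraries. Of 11714 genes with as many UMIs, 5.98% were that much higher and 6.58% that much lower, so members were more often higher and less often lower than the background, with no test of either difference. The median log2 ratio of the members was 0.17, against 0.01 over all genes. By counting error alone, 27 members were above BM only, 9 were below it and 10 had an interval that held 0. The share of all genes with such intervals is not given, so these counts are not set against a background. These counts cannot separate GvHD from any other difference between 2 libraries. The number lower depended on which cells were compared: it was 3 without cells in which at least 3 of Ifit1, Ifit3, Isg15, Usp18 and Rsad2 were detected, 4 in cells with iNKT V beta segments and 5 when only NKT1-, NKT2-, NKT17- and cycling-like cells were kept. Leaving out cells by these 5 genes, which are members, limits their levels in the cells kept, so the count of 3 is a description only.

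Among the transcription factors, Stat2 and Irf9 form the complex that type I interferon activates, and Irf7 drives interferon genes and is itself interferon-induced. Stat2 stood at 18.3 CPM in C57BL/6, 18.6 in BM only and 19.5 in BM + Spl, and Irf9 at 54.5 CPM in C57BL/6, 54.2 in BM only and 58.6 in BM + Spl. Neither differed by as much as 1.5-fold between the BMT libraries, with log2 ratios of 0.07 (-0.08 to 0.22) and 0.11 (0.03 to 0.20). Irf7 stood at 57.6 CPM in C57BL/6, 125 in BM only and 157 in BM + Spl, a log2 ratio of 0.33 (0.27 to 0.38) for BM + Spl over BM only. Irf7 was the most counted of these 3 genes in the BMT libraries, and its interval, like that of Irf9, lay above 0. In NKT1-like cells Stat2, Irf9 and Irf7 had ratios of -0.04 (-0.53 to 0.43), -0.16 (-0.45 to 0.12) and 0.09 (-0.08 to 0.26). In NKT2-like cells they had -0.26 (-0.61 to 0.11), 0.02 (-0.16 to 0.20) and 0.35 (0.22 to 0.47). NKT17-like cells had 0.81 (0.37 to 1.25) for Irf9 and 0.80 (0.47 to 1.14) for Irf7.

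Of the cytosolic sensors, Zbp1, a sensor of left-handed nucleic acid that can start cell death, was at 83.3 CPM in C57BL/6, 80.3 in BM only and 91.5 in BM + Spl. Its log2 ratio was 0.19 (0.12 to 0.26). Ifih1 (MDA5) and Dhx58 (LGP2), helicases that detect double-stranded RNA, had ratios of 0.36 (0.20 to 0.52) and 0.60 (0.41 to 0.79). Dhx58 rested on 351 UMIs in BM only and 660 in BM + Spl. The related Ddx60 was at 0.15 (-0.02 to 0.33).

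The PYHIN genes, a family of DNA-binding proteins that are clustered on chromosome 1, did not all differ in 1 direction. Ifi203 was at 130.1 CPM in C57BL/6, 91.9 in BM only and 73.2 in BM + Spl, with a ratio of -0.33 (-0.40 to -0.26). Ifi214 was at 23.4 CPM in C57BL/6, 17.0 in BM only and 10.8 in BM + Spl, the lowest ratio of all members, -0.66 (-0.84 to -0.49). Ifi206 and Ifi213 had ratios of 0.00 (-0.08 to 0.09) and 0.20 (0.11 to 0.29). Neighbouring genes of this family share sequence: 21.6% of the 60-base windows of Ifi206 transcripts and 12.3% of those of Ifi214 occur in another gene, so how their reads were assigned is uncertain.

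IFIT proteins bind viral RNA and block its translation. Ifit1 (chr19:34640871-34650009, mm10) was at 64.1 CPM in C57BL/6, 25.1 in BM only and 30.4 in BM + Spl, with a ratio of 0.28 (0.15 to 0.40). Ifit3 (chr19:34583531-34588731) was lower in BM + Spl, at 49.5 CPM in C57BL/6, 29.3 in BM only and 21.0 in BM + Spl and a ratio of -0.48 (-0.61 to -0.35), while its near copy Ifit3b had a ratio of -0.02 (-0.17 to 0.13). Of the 60-base windows of Ifit3, 46.98% occur in another gene, mostly Ifit3b, so the difference between these genes is uncertain. Ifit1bl1 was at 11.1 CPM in C57BL/6, 6.67 in BM only and 5.17 in BM + Spl, a ratio of -0.37 (-0.64 to -0.09), and Ifit2 was at 0.02 (-0.16 to 0.19).

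The ISG15 group was higher in BM + Spl for each of its 3 genes. Isg15 (chr4:156199424-156200818), a ubiquitin-like protein that is attached to other proteins, was at 48.4 (46.6 to 50.2) CPM in C57BL/6, 108 (104 to 111) in BM only and 148 (145 to 152) in BM + Spl, a ratio of 0.46 (0.40 to 0.52). Usp18, the protease that removes it and that also limits receptor signalling, was at 11.9 CPM in C57BL/6, 14.5 in BM only and 22.1 in BM + Spl, a ratio of 0.61 (0.45 to 0.77). Herc6, a ligase of the system in mice, had a ratio of 0.23 (0.12 to 0.34).

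OAS enzymes make the second messenger that activates RNase L, and the OAS-like genes and the kinase PKR (Eif2ak2) belong to the same antiviral arm. Oasl2 (chr5:114896936-114912234) was at 27.6 CPM in C57BL/6, 15.0 in BM only and 28.4 in BM + Spl, with the third largest ratio of the list, 0.93 (0.78 to 1.08). Oas2 had a ratio of 0.67 (0.25 to 1.10) but rested on 72 and 142 UMIs, at 5.39 CPM in C57BL/6, 2.07 in BM only and 3.29 in BM + Spl. Oas3 was at 65.1 CPM in C57BL/6, 22.6 in BM only and 22.4 in BM + Spl, and its ratio of -0.01 (-0.15 to 0.12) held 0. Oasl1 fell just short of 1.5-fold, at 0.58 (0.36 to 0.79), whereas Oas1a and Eif2ak2 were at -0.07 (-0.18 to 0.03) and 0.12 (-0.01 to 0.25). Among the windows of Oas1a, 52.9% occur in another gene.

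Among the GTPases, which attack the membranes around microbes, Ifi47 was at 118 CPM in C57BL/6, 155 in BM only and 183 in BM + Spl, a ratio of 0.24 (0.19 to 0.29). Gbp2 was at 0.19 (0.10 to 0.28), but Gbp7 and Gbp9 were lower, at -0.22 (-0.31 to -0.13) and -0.47 (-0.60 to -0.33). Gbp9 stood at 28.6 CPM in C57BL/6, 27.8 in BM only and 20.1 in BM + Spl. The Schlafen genes, regulators of lymphocyte growth and of translation, also split. Slfn1 was at 135 CPM in C57BL/6, 97.2 in BM only and 133 in BM + Spl, a ratio of 0.45 (0.39 to 0.51), and Slfn5 had a ratio of 0.51 (0.39 to 0.63), while Slfn8 was at 51.1 CPM in C57BL/6, 38.6 in BM only and 28.9 in BM + Spl, a ratio of -0.42 (-0.53 to -0.31). Parp14, which ADP-ribosylates proteins, was at 66.7 CPM in C57BL/6, 35.1 in BM only and 34.7 in BM + Spl and a ratio of -0.02 (-0.13 to 0.09), and its partner Parp9 had 0.12 (0.01 to 0.23).

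Of the other antiviral effectors, Bst2 (tetherin, chr8:71534255-71537456), which holds budding virions at the cell surface, was at 131 (128 to 134) CPM in C57BL/6, 279 (274 to 285) in BM only and 542 (535 to 549) in BM + Spl, a ratio of 0.96 (0.92 to 0.99). Rsad2 (viperin, chr12:26442746-26456452), which makes a chain-terminating nucleotide, was at 15.4 CPM in C57BL/6, 7.07 in BM only and 9.00 in BM + Spl, a ratio of 0.35 (0.11 to 0.58), and its chromosomal neighbour Cmpk2 had 0.43 (0.24 to 0.62). Isg20, an exonuclease, Trim30a and Rtp4 had ratios of 0.14, 0.23 and 0.14, and Samd9l was lower, at -0.27. Ifi27l2a (chr12:103442167-103443680) was at 969 (961 to 977) CPM in C57BL/6, 1231 (1219.8 to 1243) in BM only and 2531 (2516 to 2546) in BM + Spl, the largest ratio of all members, 1.04 (1.02 to 1.06). Xaf1, Ifi35, Ifi44 and Lgals3bp had ratios of 0.34, 0.22, -0.07 and -0.14.

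**Figure D2:**
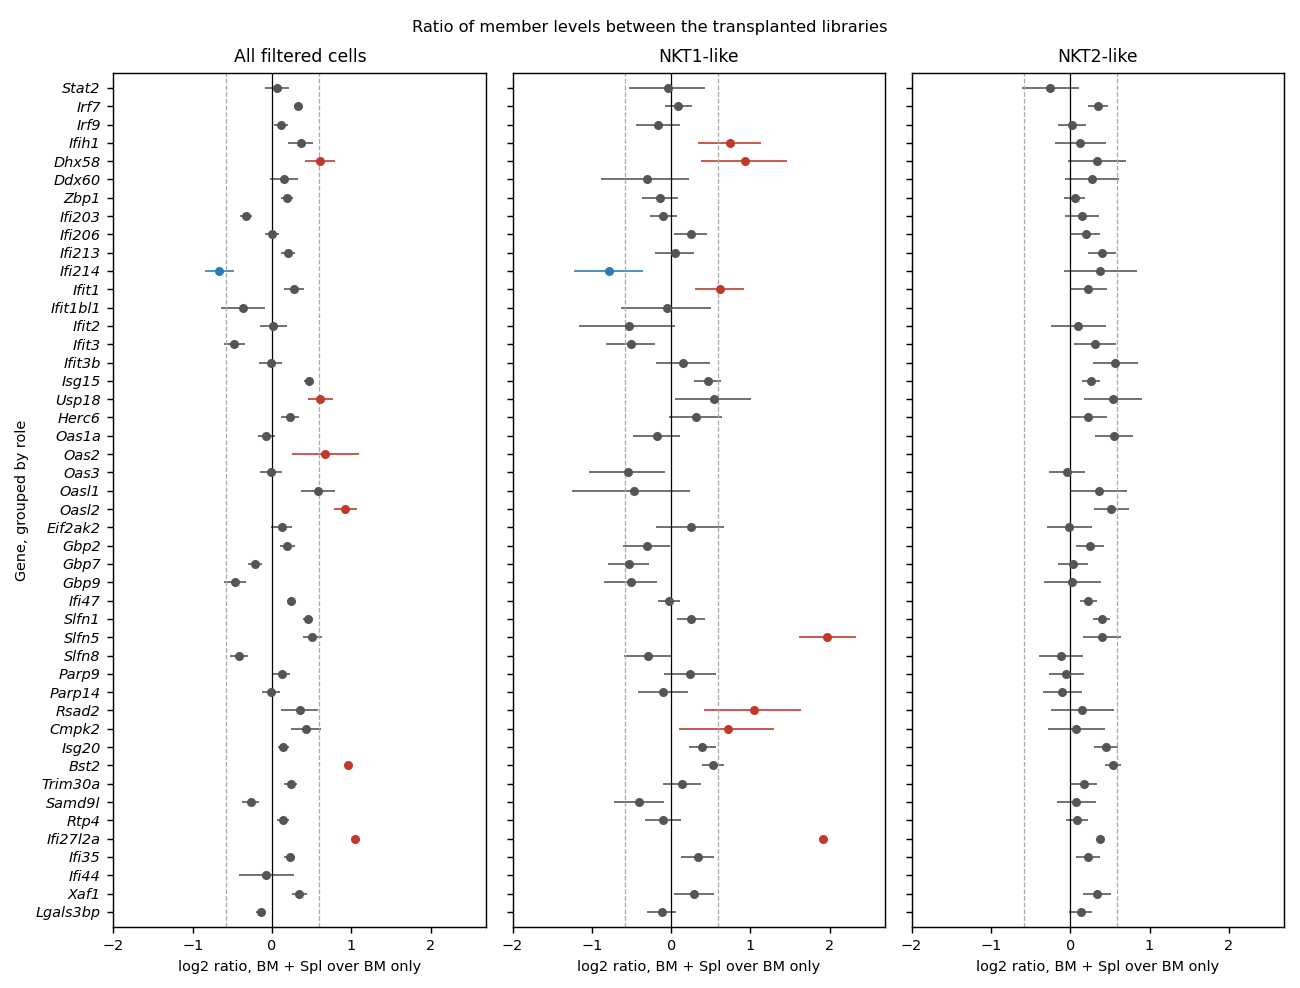
Log2 ratio of each member, BM + Spl over BM only, in all filtered cells, NKT1-like cells and NKT2-like cells, with 95% counting intervals, for members with at least 100 UMIs over both libraries. Red and blue points lie past 1.5-fold (dashed lines): 6 up and 1 down in all cells, 7 up and 1 down in NKT1-like cells, and none in NKT2-like cells.

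Ifi214, Ifit3, Gbp9, Slfn8, Ifit1bl1 and Ifi203, the members with the lowest ratios in all cells, each had a higher level in NKT1-like than in NKT2-like cells of both BMT libraries. So had 23 of 46 members in BM only and 23 in BM + Spl. NKT1-like cells were a smaller share of BM + Spl, and NKT2-like cells a larger one, at 12.5% and 23.1%. Oasl2, at 0.93 in all cells, was higher in NKT2-like cells, with 0.52 (0.29 to 0.75) there and 0.24 (-0.56 to 0.97) in NKT1-like cells. The part of cell mixture in any ratio over all cells was not tested. Within NKT1-like cells Ifi203 was at 145 CPM in BM only and 135 in BM + Spl, and within NKT2-like cells at 38.8 and 42.9. Its ratios inside these gates, -0.10 (-0.27 to 0.07) and 0.15 (-0.07 to 0.36), both had intervals that held 0. Slfn8 had -0.29 (-0.60 to 0.01) and -0.12 (-0.39 to 0.16) in NKT1-like and NKT2-like cells. Gbp9 was lower in NKT1-like cells, at -0.50 (-0.84 to -0.17), and so was Ifit3, at -0.51 (-0.83 to -0.20), but in NKT2-like cells these were at 0.03 (-0.33 to 0.39) and 0.31 (0.04 to 0.58). In NKT1-like cells with iNKT V beta segments, Gbp9 was at -0.28 (-0.81 to 0.22) and Ifit3 at -0.19 (-0.68 to 0.26), and both intervals held 0. Ifi214 was lower in NKT1-like cells, with 34.1 against 19.8 CPM. It had no lower value in NKT2-like cells, with 8.18 against 10.6 CPM on 57 and 137 UMIs. In NKT1-like cells with iNKT V beta segments Ifi214 was also lower, at -0.86 (-1.63 to -0.18), on 326 UMIs in BM only and 18 in BM + Spl. The intervals of Ifi203, Slfn8 and Ifit1bl1 held 0 in those cells.

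In NKT2-like cells, where V beta use was alike in both libraries, 43 members had at least 100 UMIs and none was past 1.5-fold in either direction, against 0.671% of genes higher and 1.71% lower. The median log2 ratio was 0.23 against -0.02 over all genes. By counting error 21 members were above BM only and 0 below it, with no share of all genes given for such intervals. The largest ratios were those of Ifit3b, 0.56 (0.28 to 0.85), Oas1a, 0.55 (0.32 to 0.79), Bst2, 0.54 (0.44 to 0.64), Usp18, 0.53 (0.17 to 0.91), and Oasl2, 0.52 (0.29 to 0.75). Bst2 stood at 154 and 225 CPM and Oasl2 at 32.2 and 46.0 CPM. The NKT2-like differences of the members were thus small, with a member median above that of all genes and no test of that difference. The median was 0.26 when only cells with iNKT V beta segments were kept and 0.16 outside interferon-high cells. After thinning to 2700 UMIs per cell and gating again it was 0.51. The value of 0.16 includes Ifit1, Ifit3 and Isg15, whose levels outside interferon-high cells are limited by the rule for that group.

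In NKT1-like cells the median of the members was near that of all genes, at 0.04 against 0.02. Of 43 members, 7 were past 1.5-fold up and 1 down, against 9.15% and 9.08% of genes. As over all cells, members were more often higher and less often lower than the background, with no test of either difference. Outside interferon-high cells, 38 members had enough UMIs, 5 were past 1.5-fold up and 5 down, against 9.02% and 9.22% of genes, and the median was -0.09. Ifit1 is among those up and Ifit3 among those down, and Isg15 is also counted. The rule that defines interferon-high cells limits the levels of these genes outside them. These counts and this median are therefore descriptions only. Slfn5 was at 12.1 CPM in BM only and 47.3 in BM + Spl, a ratio of 1.97 (1.61 to 2.33). Ifi27l2a was at 774 and 2928 CPM, a ratio of 1.92 (1.87 to 1.96). Rsad2, Dhx58, Ifih1, Cmpk2 and Ifit1 were also past 1.5-fold, on 34 to 119 UMIs in BM + Spl. NKT1-like cells carried iNKT V beta segments less often in BM + Spl, and the part of this in the ratios was not tested. In cells with these segments Slfn5 was at 10.6 and 47.6 CPM, Ifih1 and Ifit1 had ratios of 1.14 (0.54 to 1.69) and 1.01 (0.55 to 1.44), and Rsad2, Dhx58 and Cmpk2 had under 100 UMIs and were not counted.

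NKT17-like cells, with genes of the RORγt programme, had the largest median among the gates compared, though the members counted differed between gates. Of the 46 members, 44 had a higher level in BM + Spl and 2 a lower one. Some rested on few UMIs, such as Oas2 on 1 in BM only and 2 in BM + Spl. No share of all genes is given for this count of directions. Only 23 members reached 100 UMIs in these 416 and 196 cells, and 18 of the 23 were past 1.5-fold up and none down, against 6.04% and 6.44% of genes, with a median log2 ratio of 0.85. A member could reach 100 UMIs through its level in BM + Spl, so this count is a description of the 23 and not of the list. Ifi27l2a was at 544 and 5686 CPM, Gbp2 at 37.5 and 91.0, Ifi47 at 101 and 241, and Isg15 at 51.9 and 121. iNKT V beta segments prevailed in 59.2% of BM only and 36.0% of BM + Spl NKT17-like cells. Among those that carried them, 228 and 68 cells, the members other than Ifi27l2a summed to 1435 and 2373 CPM. Regulatory T-like cells had 4 of 33 members past 1.5-fold up, Usp18, Ifi213, Bst2 and Dhx58, and 2 down, Slfn5 and Samd9l, against 2.38% and 4.88% of genes. The median log2 ratio of the members counted was 0.12 there, 0.45 in cycling-like and 0.38 in Cd8a+Cd8b1+ cells.

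The order of Ifi27l2a levels over cell types differed between libraries. In BM only it was highest in regulatory T-like cells, at 3027 CPM, and stood there at 3846 in BM + Spl. In NKT2-like cells it was at 1136, 1262 and 1638 CPM in C57BL/6, BM only and BM + Spl, and in NKT1-like cells at 867, 774 and 2928. NKT1-like cells were therefore below NKT2-like cells in C57BL/6 and BM only, with log2 ratios of -0.39 (-0.43 to -0.35) and -0.70 (-0.75 to -0.66), and above them in BM + Spl, with 0.84 (0.80 to 0.88). Within the BMT libraries, NKT1-like cells with iNKT V beta segments were likewise below NKT2-like cells in BM only and above them in BM + Spl. In NKT1-like cells with these segments Ifi27l2a was at 733 CPM in BM only (2033 cells) and 3090.0 in BM + Spl (175 cells), and in such NKT2-like cells at 1234 and 1627. In NKT17-like cells the 2 V beta classes were apart in BM + Spl, at 1989 CPM with iNKT segments and 8262 with others. Thinned to 2700 UMIs per cell, at least 20 UMIs of this 1 gene were held by 0.226% of cells in C57BL/6, 1.80% in BM only and 8.12% in BM + Spl, while the median cell held 2, 2 and 4.

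Bst2 and Irf7 were highest in plasmacytoid dendritic-like cells, a cell type known for both. In these cells Bst2 was at 2884 CPM in BM only and 3745 in BM + Spl, and Irf7 at 484 and 494. They held 48.3% and 60.6% of all Bst2 UMIs, and 18.1% and 27.6% of Irf7 UMIs, and their number was larger in BM + Spl. Without dendritic-, macrophage- and B-like cells, the ratio of Bst2 over all cells was 0.63 instead of 0.96, and that of Irf7 was 0.23 instead of 0.33. Bst2 was at 146 and 211 CPM in NKT1-like cells, a ratio of 0.53 (0.39 to 0.67). The 8 dendritic markers summed to 44.4 and 66.8 CPM in NKT1-like cells, against 5539 and 7518 in dendritic-like cells. Of these, Siglech, Cox6a2 and Klk1, chosen after their values were seen, summed to 0.710 and 1.53 CPM in NKT1-like cells and 3618 and 5582 in dendritic-like cells. Whether RNA of dendritic cells had a part in the NKT1-like level of Bst2 was not tested.

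Cells in which at least 3 of Ifit1, Ifit3, Isg15, Usp18 and Rsad2 were detected are called interferon-high. Their share was 13.9% (12.9 to 15.0) in C57BL/6, 4.44% (3.93 to 4.99) in BM only and 6.89% (6.24 to 7.59) in BM + Spl (Clopper-Pearson intervals). Detection grows with depth, and interferon-high cells were deeper than the others, with medians of 5596 against 4699 UMIs in BM only and 8595 against 6294 in BM + Spl. Thinned to 2700 UMIs per cell, the shares were 4.46% (3.87 to 5.11), 2.57% (2.15 to 3.05) and 2.87% (2.42 to 3.37). The log2 ratio of the share, BM + Spl over BM only, was 0.63 (0.42 to 0.85) with all UMIs and 0.15 (-0.18 to 0.49) at equal depth, so no difference in the share was detectable at equal depth over all cells. Thinning left out 15, 959 and 568 shallower cells. No cell type that should lack these genes was gated, so no background share of cells with a UMI is given. Plasmacytoid dendritic-like cells of BM only held 1 UMI of Ifit1, or 0.615 (0.0156 to 3.42) CPM, and those of BM + Spl held 27, or 7.14 (4.71 to 10.4) CPM.

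By gate, the thinned share of NKT2-like cells was 4.52% (3.66 to 5.52) in C57BL/6, 2.61% (1.58 to 4.04) in BM only and 4.42% (3.36 to 5.71) in BM + Spl, a log2 ratio of 0.76 between the last 2, with an interval from 0.02 to 1.502. NKT1-like cells were at 6.15% (4.72 to 7.86), 3.39% (2.66 to 4.24) and 3.46% (1.95 to 5.64), a ratio of 0.03 (-0.76 to 0.82). NKT17-like cells, with 4 and 7 interferon-high cells in BM only and BM + Spl, had a ratio of 1.82 (0.06 to 3.57). With all UMIs, NKT17-like cells with iNKT V beta segments had 5 of 228 interferon-high cells (2.19%, 0.716 to 5.04) in BM only and 0 of 68 interferon-high cells (0%, 0 to 5.28) in BM + Spl, the opposite direction, and those with other segments had 1 of 157 interferon-high cells (0.637%, 0.0161 to 3.50) and 10 of 121 interferon-high cells (8.26%, 4.03 to 14.7). Regulatory T-like and cycling-like cells had thinned ratios of -0.71 (-2.23 to 0.81) and -0.12 (-1.93 to 1.69), and the latter stood at 1.39 (0.30 to 2.48) with all UMIs. The intervals of the NKT2-like and NKT17-like ratios lay just above 0, and those of the NKT1-like, regulatory T-like and cycling-like ratios held it. Whether the ratios differ between gates was not tested. Cycling-like cells, with a median of 22096 UMIs in C57BL/6, were at 9.58% (7.51 to 12.0) with all UMIs and 0.565% (0.154 to 1.44) after thinning there.

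**Figure D3:**
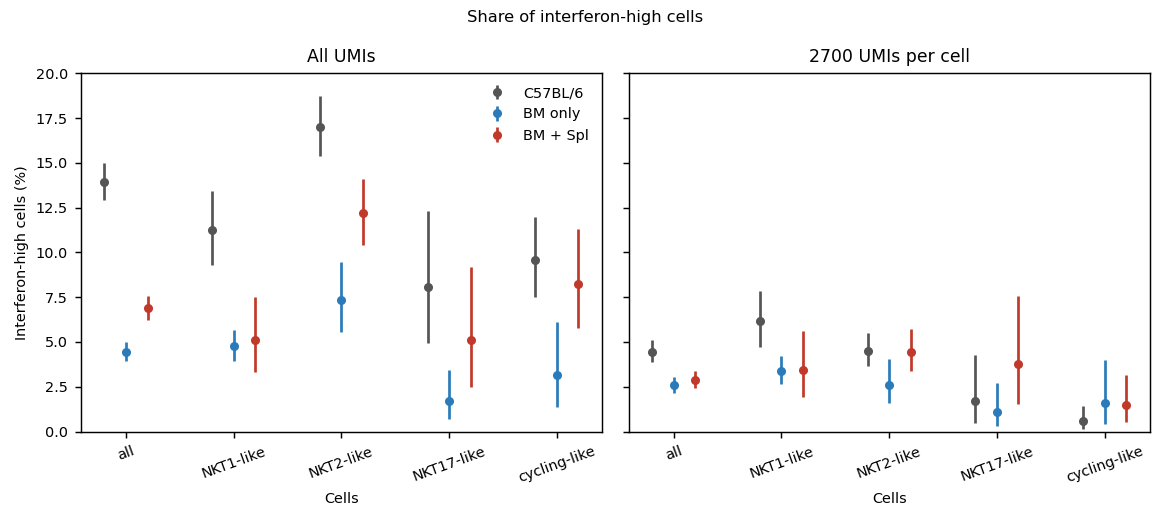
Share of interferon-high cells in percent, over all filtered cells and 4 marker gates, with all UMIs (left) and after thinning to 2700 UMIs per cell (right), with Clopper-Pearson 95% intervals. C57BL/6 stands at 13.9% on the left and 4.46% on the right, and the libraries lie closer together at equal depth.

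The 5 genes that define the group are not a finding in it. The other 41 shared members were not used to define it. They come from the same list of interferon-stimulated genes, however, which was chosen with earlier results of these data known. The counts below for these 41 are therefore descriptions and not independent support. With at least 100 UMIs, 41 of 41 in C57BL/6, 40 of 40 in BM only and 39 of 41 in BM + Spl were at least 1.5-fold higher in interferon-high cells than in the others, against 2.54%, 3.94% and 3.33% of genes. Their median log2 ratios were 1.71, 2.05 and 1.69. Ifit3b was 16.2-, 36.7- and 22.1-fold higher, but shares reads with Ifit3. Oasl1 was 7.44-, 11.7- and 7.67-fold higher, Cmpk2 5.28-, 13.1- and 7.09-fold, Oasl2 5.06-, 8.94- and 6.01-fold, and Irf7 3.73-, 5.01- and 3.33-fold. The exceptions in BM + Spl were Bst2, at 1.03-fold, and Ifi27l2a, at 1.25-fold, the members with the largest differences between BMT libraries, while in C57BL/6 they were 2.12- and 1.93-fold higher. Most Bst2 UMIs of BM + Spl lay in dendritic-like cells, whose part in this value was not tested. Irf9 was among the least different, at 2.09-, 1.92- and 1.65-fold.

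Members were also higher in cells below the threshold of the group. At equal depth, 3317, 3917 and 3558 cells had none of the 5 genes detected, and 689, 792 and 1021 had 1. Each of the 41 other members was higher in cells with 1 gate gene than in cells with none, in each library, with median folds of 1.99, 1.72 and 1.72. The share of all genes higher in these cells is not given, so this count is not set against a background. With 2 gate genes the median folds were 3.25, 3.60 and 3.28, and with 3 or more 5.90, 6.20 and 5.56. The summed level of the 40 members other than Ifi27l2a went from 1658 to 8820.0 CPM in BM only and from 2067 to 8710.2 in BM + Spl. The gate genes were also detected together at this depth: Isg15 was detected in 53.2% of BM only cells with an Ifit3 UMI and 12.7% of those without, and in 63.2% and 20.1% in BM + Spl. The 41 members come from the same list as the gate genes, and cells of 1 library share their source. These values are therefore descriptions of each library.

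**Figure D4:**
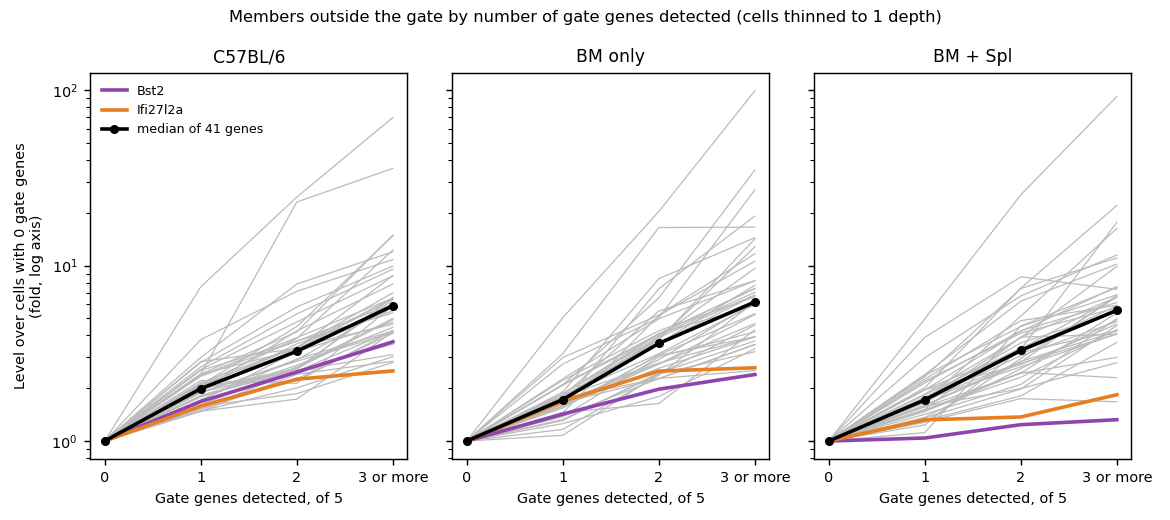
Level of the 41 members outside the gate, as fold over cells with none of the 5 gate genes detected (log axis), by the number of gate genes detected in cells thinned to 2700 UMIs. Grey lines are single genes and the black line is their median, which reaches 5.90, 6.20 and 5.56 in C57BL/6, BM only and BM + Spl, while Ifi27l2a and Bst2 stay lower.

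Some members differed in level between NKT1-like and NKT2-like cells of the same library, while the median of the list was near that of all genes. The median log2 ratio, NKT1-like over NKT2-like, was 0.12 in C57BL/6, 0.00 in BM only and 0.04 in BM + Spl. In C57BL/6 11 of 46 members were past 1.5-fold up and 1 down, against 13.8% and 11.5% of genes. In BM only it was 11 up and 7 down of 44, against 16.6% and 12.5%, and in BM + Spl 7 up and 4 down of 43, against 16.8% and 12.7%. The counts in BM + Spl are near the shares of all genes, so the split there is not particular to the members. The gates differ in depth, with medians of 6376 and 13464 UMIs in C57BL/6.

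Ifi203, Gbp9, Ifi214 and Slfn8 were higher in NKT1-like cells. By family, 3 of 4 PYHIN, 3 of 5 IFIT, 2 of 4 GTPase and 1 of 3 Schlafen genes counted were past 1.5-fold up in C57BL/6, and 2 of 4, none of 4, 1 of 4 and 1 of 3 in BM + Spl. Over all genes 13.8% were past 1.5-fold up in C57BL/6 and 16.8% in BM + Spl. The other role groups, and BM only, are not given by family. Ifi203 was at 317 against 110.3 CPM in NKT2-like cells of C57BL/6, and its log2 ratios were 1.52 (1.44 to 1.60), 1.90 (1.72 to 2.10) and 1.66 (1.46 to 1.85) in C57BL/6, BM only and BM + Spl. Gbp9 had 1.57 (1.40 to 1.74), 1.71 (1.40 to 2.03) and 1.19 (0.81 to 1.56), Ifi214 0.79 (0.58 to 0.99), 2.06 (1.65 to 2.49) and 0.91 (0.42 to 1.38) and Slfn8 1.13 (0.99 to 1.26), 1.04 (0.79 to 1.29) and 0.87 (0.54 to 1.19). These 4 genes were past 1.5-fold in each library. Ifit3 had 1.38 (1.26 to 1.51), 1.18 (0.94 to 1.44) and 0.37 (0.04 to 0.69), and Samd9l 1.02, 0.81 and 0.33, past 1.5-fold in C57BL/6 and BM only alone. Ifit1bl1, on 28 to 232 UMIs per gate, had 2.15 (1.88 to 2.42) and 1.74 (1.15 to 2.38) in C57BL/6 and BM only.

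Oasl2 and Oas3 had lower levels in NKT1-like cells. Oasl2 was at 16.5 CPM in NKT1-like and 35.3 in NKT2-like cells of C57BL/6, at 6.48 and 32.2 in BM only, and at 7.63 and 46.0 in BM + Spl. Its log2 ratios were -1.10 (-1.39 to -0.81), -2.31 (-2.71 to -1.92) and -2.59 (-3.31 to -1.95), the lowest of the members counted in each library. Oas3 had -0.42 (-0.58 to -0.27), -0.59 (-0.84 to -0.33) and -1.09 (-1.57 to -0.63). Slfn5 was lower, unlike Slfn8, in NKT1-like cells of C57BL/6 and BM only, at -0.44 (-0.64 to -0.24) and -1.31 (-1.64 to -0.99), and at 0.26 (-0.03 to 0.55) in BM + Spl. Oas1a had -0.28 (-0.64 to 0.07), 0.71 (0.48 to 0.95) and -0.02 (-0.32 to 0.28), but shares sequence with other Oas1 genes. The factors that carry the signal did not reach 1.5-fold: Stat2 had 0.35 (0.08 to 0.60), 0.22 (-0.13 to 0.57) and 0.44 (-0.07 to 0.91), Irf9 0.01 (-0.15 to 0.17), -0.03 (-0.21 to 0.16) and -0.21 (-0.50 to 0.06) and Irf7 0.30 (0.16 to 0.44), 0.20 (0.07 to 0.33) and -0.05 (-0.22 to 0.11).

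**Figure D5:**
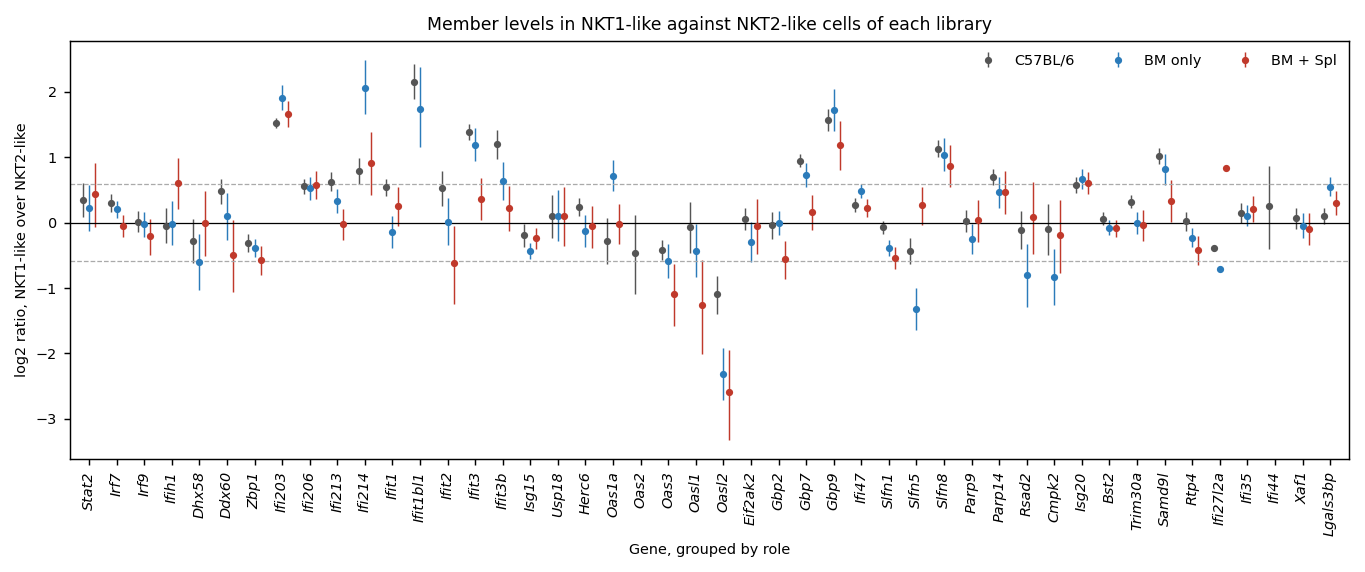
Log2 ratio of each member, NKT1-like over NKT2-like cells, within each library, with 95% counting intervals and dashed lines at 1.5-fold, for members with at least 100 UMIs. Ifi203, Ifi214, Gbp9 and Slfn8 lie above the upper line in all 3 libraries and Oasl2 below the lower one, and Ifi27l2a changes side, from -0.70 in BM only to 0.84 in BM + Spl.

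Genes of the pathway outside the list were also compared between the BMT libraries. Among receptors, Ifngr1, a chain of the interferon-gamma receptor, was past 1.5-fold lower in BM + Spl, at 278 CPM in BM only and 150.1 in BM + Spl. It was under 1.5-fold in both gates, at -0.54 (-0.64 to -0.43) in NKT1-like and -0.54 (-0.85 to -0.24) in NKT2-like cells, and its level in BM only was 511 CPM in NKT1-like and 23.4 in NKT2-like cells, with fewer NKT1-like cells in BM + Spl. The part of cell mixture in its ratio over all cells was not tested. Ifnar1 and Ifnar2, the type I receptor, had log2 ratios of -0.23 (-0.32 to -0.14) and 0.19 (0.12 to 0.26). Of regulators and adaptors, 1 of 12 up and 1 down was the count, for Irf8 and Socs3, and Irf8 is also a gene of dendritic cells. Over all genes 5.98% were past 1.5-fold up and 6.58% down between the BMT libraries, which is near these and the next counts of that comparison. Irf8 was at 27.6 and 80.9 CPM in NKT1-like cells of BM only and BM + Spl, a ratio of 1.55 (1.29 to 1.81). Socs3 had ratios of -0.23 (-0.48 to 0.02) and -0.48 (-1.01 to 0.06) in NKT1-like and NKT2-like cells. Of interferon-gamma response genes, 1 of 15 up and 0 down was the count, with Iigp1 at 12.8 and 31.6 CPM, and of other interferon-stimulated genes outside the list it was 1 of 17 up and 0 down, with Ms4a4c at 15.9 and 34.7 CPM. In interferon-high cells over other cells, 17 of 18 of the latter were past 1.5-fold up in C57BL/6, 17 of 17 in BM only and 14 of 16 in BM + Spl. Of interferon-gamma response genes, 14 of 15, 13 of 15 and 11 of 15 were past 1.5-fold up, and 1 was down in BM + Spl. Over all genes 2.54%, 3.94% and 3.33% were past 1.5-fold up in this comparison. Between the BMT libraries, 2 of 10 regulators and adaptors counted in NKT1-like cells were past 1.5-fold up and 1 was down, against 9.15% and 9.08% of genes. Those up were Irf8 and Irf5, the latter at 7.99 CPM in BM only and 40.4 in BM + Spl, and Irf1 was down.

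Interferon transcripts themselves were nearly absent, apart from Ifng. Over 20 type I and III interferon genes, 1 UMI was counted in C57BL/6, 42 in BM only and 3 in BM + Spl. All 42 UMIs of BM only, of which 34 were Ifna4 and 4 Ifnb1, came from 1 plasmacytoid dendritic-like cell. Ifng, the type II interferon and a product of NKT1 cells, was at 8.33, 181 and 63.2 CPM in C57BL/6, BM only and BM + Spl. In NKT1-like cells alone its log2 ratio, BM + Spl over BM only, was -0.64 (-0.75 to -0.53).

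Beside the BMT libraries, C57BL/6 stood lower for Irf7, Isg15 and Bst2 and higher for Oas3, Ifit1, Ifit3 and Gbp7 (levels above, and 98.3, 59.5 and 51.1 CPM for Gbp7), and age, host, transplantation and library type cannot be told apart for any of these. Mx1 was counted with 237 UMIs in 158 C57BL/6 cells, 4.03 CPM (3.53 to 4.58). It was at 20.9 CPM in interferon-high and 1.25 CPM in other cells of that library.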

How the data were processed

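Droplet RNA sequencing of sorted thymocytes was deposited as 1 matrix of UMI counts per library, 3 in all. The authors made these counts with Cell Ranger against mm10, and the deposited counts are not normalized. They hold 4613, 5986 and 5573 cells of C57BL/6, BM only and BM + Spl, to which the filter on genes and mitochondrial UMIs had not been applied. Per the file headers, version 3.0.2 was used for C57BL/6 and 7.0.0 for the BMT libraries. The study also names Seurat, version 4.0.2 per the submitters' processing notes.

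The filter left out 179, 16 and 16 cells of C57BL/6, BM only and BM + Spl, and no doublet caller was run. Counts were summed over cells and scaled to CPM over the 30406 shared gene identifiers. Intervals (95%) were exact Poisson for CPM, Clopper-Pearson for shares, exact conditional for ratios of counts and Katz for ratios of shares. A gene was counted from 100 UMIs over both groups, and 1.5-fold was the call. The ratio step was tested on simulated data.

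A cell was gated as B-, macrophage or plasmacytoid dendritic-like from 3 detected markers, then as regulatory T-like (Foxp3 and at least 3 markers), Cd8a+Cd8b1+, cycling-like (4 markers), NKT17-like (3), NKT1-like or NKT2-like (4 each, with a larger share of its own list detected than of the other). These thresholds were set after the marker distributions were seen. Use of iNKT V beta meant that 6 segments gave no less than 80% of a cell's V beta UMIs. The members and lists were chosen with earlier results of these data known. Values in every library are given for the 5 gate genes, the most counted member of each role group, the 5 highest and 5 lowest ratios of BM + Spl over BM only, and Stat2, Irf9 and Irf7, and other members named were chosen after their values were seen. Of the pathway genes, Mb21d1 and Mnda were not matched by symbol. Promoter sequences were those of RefSeq for GRCm38.p6, and transcript sequences and gene coordinates were those of GENCODE. Analyses used Python 3.11.15, numpy 2.4.6, scipy 1.17.1 and pandas 2.3.3.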

Additional observations from a re-analysis of the deposited data

Results flagged for a closer look

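Ifi27l2a stood out because its ratio between NKT1-like and NKT2-like cells had opposite signs in the BMT libraries. The log2 ratio, NKT1-like over NKT2-like, was -0.704 in BM only and 0.838 in BM + Spl, and the difference between the libraries was not tested, since each group was 1 library.

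Mx1 stood out as a member counted in 1 gene table alone. It had 237 UMIs in filtered C57BL/6 cells, above the 3 counts that a count of 0 allows, and no value is given for the other libraries.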

How the results depend on the processing

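The number of members past 1.5-fold lower in BM + Spl over all filtered cells was 1, and was 3 without interferon-high cells, 4 in cells with iNKT V beta segments and 5 in NKT1-, NKT2-, NKT17- and cycling-like cells alone, a choice added after seeing the data. Leaving out interferon-high cells limits, by rule, the levels of the genes that define them. The log2 ratio of the interferon-high share was 0.63 with all UMIs, 0.15 after thinning to 2700 UMIs, 0.94 in cells with iNKT V beta segments and 0.23 in such cells after thinning, also added after seeing the data. The median of the members in NKT2-like cells was 0.23, and 0.51 after thinning and gating again. The cause of these shifts was not tested. The other 57 values of these counts, shares and medians under the alternatives moved by less than their limits, and all 144 values of single genes kept their direction, with 48 outside the main interval. With 1 library per group no replicate could be left out and no spread between mice is known. No paired analysis was possible because each group held 1 library.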
